A study of Saccharomyces cerevisiae with 28 samples.

Results

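The mitochondrial ribosomal protein genes of baker's yeast were followed across sucrose concentrations in 2 yeasts. They were taken by name: every S. cerevisiae probe set whose gene symbol is MRPL, MRPS, RSM or MRP followed by a number, except MRP8. This gave 65 genes with 1 probe set each, among 5498 S. cerevisiae probe sets with a gene symbol (5449 genes). By the standard nomenclature of ribosomal proteins 37 belong to the large and 28 to the small subunit, 40 have a counterpart in the bacterial ribosome and 25 do not. RSM22 is the exception: it was given no family name of that nomenclature and is counted with the small subunit. RefSeq holds 66 genes that match the name rule, and MRP35 had no probe set here.

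Mitochondrial ribosomes translate the few messages encoded in mitochondrial DNA, which in S. cerevisiae are nearly all core subunits of the respiratory chain and the ATP synthase. Almost all of their proteins are encoded in the nucleus, made in the cytosol and imported. In S. cerevisiae respiratory genes are repressed while glucose, which the cell releases from sucrose with invertase, is plentiful, and the HAP2/3/4/5 complex activates many of them once repression is lifted. PUF3 binds messages of nuclear genes for mitochondrial proteins, mitochondrial ribosomal proteins prominently among them.

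The 2 yeasts are named LS and HS in the labels, which do not say what the letters stand for. All groups were sampled 60 min into fermentation in LF medium, whose content the labels do not give, with 0, 5, 10, 20, 30, 40 or 50% sucrose. Poly(A) RNA was hybridised to Affymetrix arrays, with 2 replicates in each of the 14 groups of yeast by sucrose, 28 arrays in all. Whether replicates were separate cultures is not stated, and a p-value here covers the spread between replicate arrays alone, which may be technical. That spread is 1 estimate per gene pooled over the groups fitted, so an SE or p-value for HS also takes in the LS replicates. Each value is a normalized ratio that the authors scaled by gene: the median over the 28 arrays was 1, within 0.006, for all 65 genes. A ratio therefore compares arrays for a gene and says nothing of which gene is more abundant. In such bulk samples fewer cells of a kind and less RNA per cell cannot be told apart.

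A set of 6 LS arrays stood apart, the second replicates at 0, 5, 10, 20, 30 and 50% sucrose. They were picked as the LS arrays where the median ratio of 1746 S. pombe probe sets, which serve as background, was above 1. This median lay between 1.51 and 13.7 on these arrays and between 0.119 and 0.994 on the other 22. The cut at 1 between them is set by the rule and is no separate evidence. Of these probe sets 46 carry S. pombe symbols of the same name patterns, with medians between 0.972 and 10.8 on the 6 arrays, against 0.084 to 0.928 elsewhere. As part of the 1746 they are not independent of the rule. Over the 65 genes the log2 ratios of LS replicates had a Pearson correlation of -0.158 to -0.07 in the groups at 0 to 30%, 0.375 at 50%, and 0.774 at 40%, where neither array stood apart. In HS it ran from -0.198 to 0.56 over these genes, against 0.471 to 0.725 over all probe sets. Counts of called genes are given with all 28 arrays and without the 6, and other values come from all 28 unless stated. In the smaller fit LS had 1 array at 0, 5, 10, 20, 30 and 50%, and a lone array is assumed to vary like the other groups.

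In HS the 65 genes kept close to their own medians at 5 to 20% sucrose and lay higher on 5 of the 6 arrays at 30% and above. Their median ratio was 0.816 and 0.905 on the 2 arrays without sucrose. At 5% it was 1.01 and 0.996, at 10% 0.9 and 1, and at 20% 0.986 and 1.01. The median then reached 1.12 and 1.18 at 30%, 0.973 and 1.18 at 40%, and 1.16 and 1.41 at 50%. Both arrays at 30% and at 50% thus lay above all 6 arrays at 5, 10 and 20%, and at 40% the second did. At 50%, 42 and 53 of the 65 genes had a ratio above 1, against 17 and 25 without sucrose.

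In LS the median ratio on the arrays that did not stand apart was 0.961 at 0%, 0.765 at 5%, 0.808 at 10%, 0.818 at 20% and 1.06 at 30%. It was 1.06 and 1.15 at 40% and 1.34 at 50%. The 3 highest sucrose concentrations were above the other 4 on these 8 arrays. On the arrays that stood apart the median was 0.685 at 0%, 0.558 at 5%, 0.463 at 10%, 1.39 at 20%, 1.49 at 30% and 0.802 at 50%, and single genes spread from 0.0301 to 14.4.

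**Figure D1:**
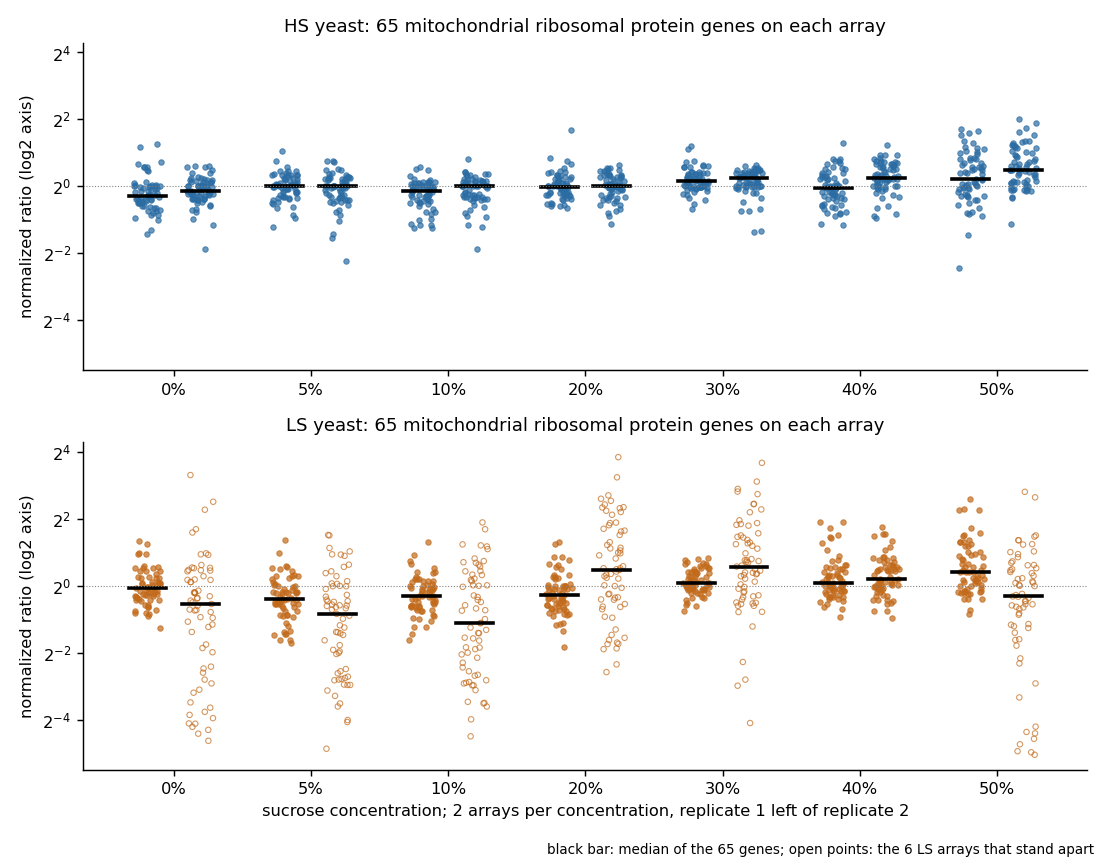
Normalized ratio (log2 axis) of each of the 65 mitochondrial ribosomal protein genes on every array, HS above and LS below, by sucrose concentration; each point is a gene, the black bar is the median of the 65, and open points are the 6 LS arrays that stand apart. In HS the medians run from 0.816 without sucrose to 1.41 at 50%, and the open points in LS spread far more widely than the filled ones.

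The change over the sucrose series was small for most of these genes. In HS the median gene's group means spanned 0.93 on the log2 scale, a 1.91-fold range, against 1.79 (3.46-fold) for 35 genes of the respiratory chain and ATP synthase and 1.59 (3-fold) for all probe sets. The 127 cytosolic ribosomal protein genes spanned 1.19 (2.29-fold). These ranges are descriptions and were not tested against each other.

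**Figure D2:**
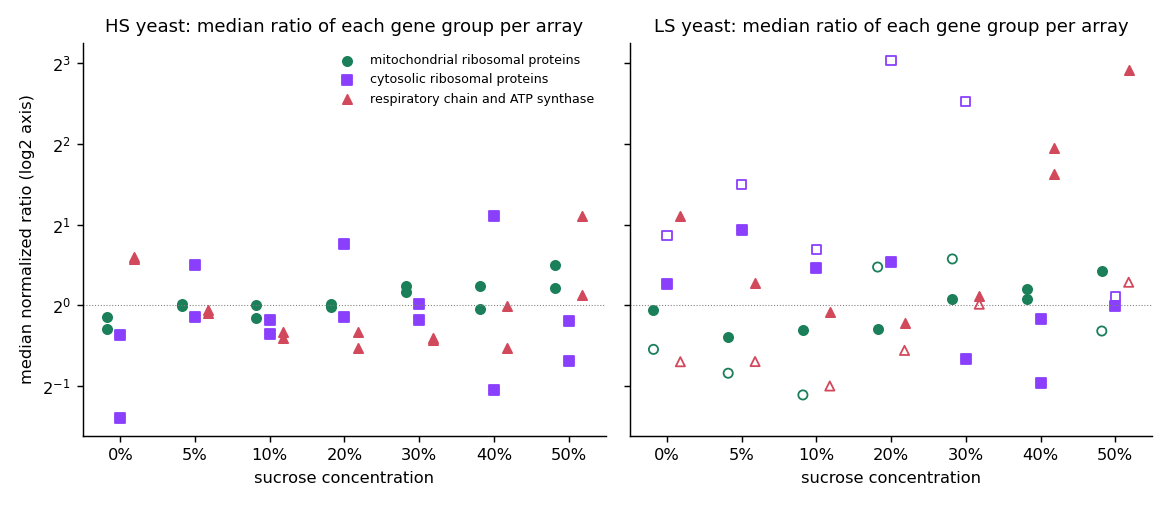
Median normalized ratio (log2 axis) per array of the mitochondrial ribosomal protein genes, the cytosolic ribosomal protein genes and the genes of the respiratory chain and ATP synthase, by sucrose concentration; open symbols are the 6 LS arrays that stand apart. The respiratory genes reach 7.53 on the first LS array at 50%, where the mitochondrial ribosomal protein genes are at 1.34 and the cytosolic ones at 0.998.

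High sucrose was compared with the mean of 5, 10 and 20% within each yeast (2 arrays against 6), with limma on log2 ratios, 2-sided, and Benjamini-Hochberg adjustment over the 5498 probe sets of a comparison. A gene is called where its adjusted p is under 0.05, and its difference is given on the log2 scale with its SE. Comparisons within a yeast share the 6 arrays at 5, 10 and 20%.

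At 50% sucrose in HS, 4 of the 65 genes rose and none fell, in a comparison that called 15.1% of all probe sets. They were MRPS17, MRPL16, MRP51 and MRPL28. Without the 6 LS arrays, which leaves every HS difference as it is and narrows the estimated spread, 20 genes rose and 1, MRPL6, fell, where 47.3% of all probe sets were called. The share of these genes called was 6.15% with all arrays, under the background in both fits. After quantile normalization 7 rose and 1 fell, a count with no share of all probe sets for that scaling beside it. The direction leaned up: 50 of 65 genes (76.9%) had a positive difference against 45.8% of all probe sets, with a median of 0.44 against -0.13. Both arrays lay above all 6 arrays at 5 to 20% for 26 genes (40%), against 24.2% of all probe sets, and below all 6 for 3, MRPL3, MRPL6 and MRPS28 (4.62%), against 30.0%. At an unadjusted p under 0.05 limma had 7 higher and 1 lower.

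MRP51, a small-subunit protein tied by genetics to the translation of COX messages, gave 2.07 and 2.23 at 50% sucrose in HS, against 0.448, 0.526 and 0.769 as the lowest, median and highest of the 6 arrays at 5 to 20%. The 2 groups did not overlap. Its log2 difference was 1.93 ± 0.57 (adjusted p = 0.026 by limma), a 3.82-fold rise. MRPL16 (uL16), a large-subunit protein beside the tRNA sites, reached 3.03 and 3.32, against 0.457, 0.737 and 0.937. It rose by 2.16 ± 0.49 (adjusted p = 0.00566 by limma), 4.48-fold, again without overlap.

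MRPS17 (uS17), a protein of the small subunit that binds its rRNA, read 2.56 and 4.04 at 50% sucrose in HS, against 0.449, 0.674 and 1.07 at 5 to 20%. The rise was 2.26 ± 0.58 (adjusted p = 0.0127 by limma), 4.79-fold. MRPL28 (mL40), a large-subunit protein with no bacterial counterpart, read 1.63 and 3.1 against 0.423, 0.733 and 0.88. Its difference of 1.76 ± 0.59 (adjusted p = 0.0493 by limma) was the one nearest to the threshold. For both genes the second replicate at 50% was well above the first, and neither group overlapped its baseline. None of the 4 was called without the second replicate at 50%.

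Of the genes not called in HS at 50%, MRP20 (uL23), at the exit of the peptide tunnel, had the highest difference, 2.64 ± 0.95 (adjusted p = 0.0691 by limma, and 0.0239 without the 6 LS arrays). Its ratios were 3.29 and 3.73 at 50%. At 0 to 40% its first replicates read 2.38, 0.813, 0.836, 1.79, 1.13 and 2.45, in order of sucrose, and its second replicates 0.274, 0.211, 0.274, 0.458, 0.385 and 0.87, so the replicates differed at each of these concentrations. Its neighbour at the tunnel exit, MRPL4 (uL29), showed the same split, from 1.1 to 3.24 on the first replicates at 0 to 40% and from 0.373 to 0.943 on the second. MRPL4 differed by 1.19 ± 0.83 at 50% (adjusted p = 0.384 by limma). For both genes the fit counts such a split as spread, and no replicate term was fitted for HS alone.

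MRPL6 (uL6), a large-subunit protein, was the lowest at 50% in HS. It read 0.185 and 0.457 against 0.826, 1.11 and 1.4 at 5 to 20%, with no overlap and a log2 difference of -1.90 ± 0.75 (adjusted p = 0.0957 by limma, and 0.00197 without the 6 LS arrays). MRPL3 (mL44), which has an RNase III-like fold, read 0.814 and 0.781 against 0.989, 1.35 and 1.42. MRPS28 (uS15) read 0.851 and 0.803 against 0.99 to 1.75, the third gene whose values at 50% were all below the baseline.

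**Figure D3:**
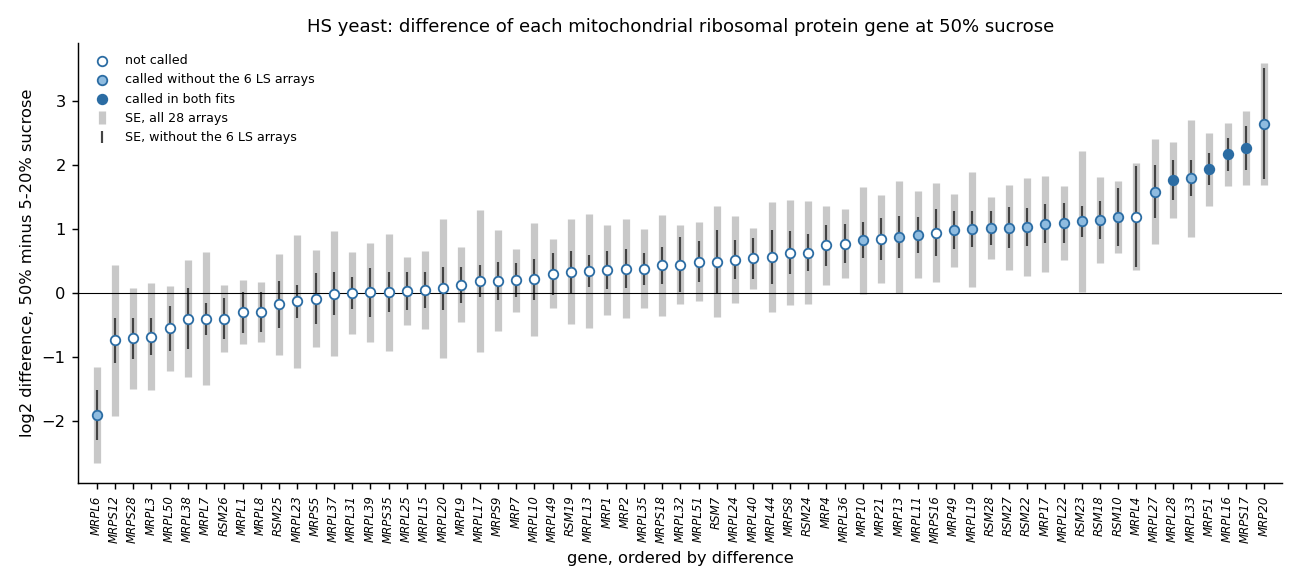
Log2 difference between 50% and the mean of 5, 10 and 20% sucrose in HS for each of the 65 genes, ordered by size; wide grey bars are the SE with all 28 arrays, thin dark bars the SE without the 6 LS arrays, and the fill shows in which fit a gene was called. The 4 genes called in both fits, MRPL28, MRP51, MRPL16 and MRPS17, lie between 1.76 and 2.26, and MRPL6 lies apart at the low end at -1.90.

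By subunit, 2 of 28 small-subunit genes and 2 of 37 large-subunit genes rose in HS at 50%, with median differences of 0.69 and 0.30. In the smaller fit 11 small-subunit genes and 9 large-subunit genes rose and 1 large-subunit gene fell. The difference between the subunits was not tested. The genes with a bacterial counterpart had a median of 0.46 with 3 of 40 rising, and those without one 0.38 with 1 of 25.

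At 40% sucrose in HS none of the 65 genes was called by limma, where 2.42% of all probe sets were, and 2 were higher at an unadjusted p under 0.05. The median difference was 0.20 against -0.06 for all probe sets, and 0.47 after quantile normalization. The highest values were MRP51 at 1.45, MRP20 at 1.37 and MRPL16 at 1.36, and the lowest MRPL6 at -1.13, MRPS12 (uS12, a protein of the decoding centre) at -1.08 and MRPL38 (uL14) at -0.94. Without the 6 LS arrays MRP51, MRPL16, MRPL33 and RSM22 rose and MRPS12 fell (adjusted p = 0.0021 for MRP51 and 0.0467 for MRPS12 by limma), with 21.5% of all probe sets called. MRP51 read 1.25 and 1.91 at 40%, above its whole baseline, and MRPS12 read 0.534 and 0.791 against a baseline of 0.691 to 2.06, which overlaps. No overlap with the baseline was found above it for 14 genes (21.5%, against 17.0% of all probe sets). Below it the same held for 4, MRP2, MRPL3, MRPL38 and MRPL6 (6.15%, against 21.6%).

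At 30% sucrose in HS the shift was slight and shared: 57 of 65 genes (87.7%) had a positive difference, against 45% of all probe sets, with a median of 0.24 against -0.05, and 0.54 after quantile normalization. No gene was called with all arrays, nor was any below an unadjusted p of 0.05 in limma, and 0.0182% of all probe sets were called. MRPL33 (uL30) was highest at 0.93, followed by MRP51 at 0.73 and MRPS17 at 0.70. MRPS12 at -0.42, MRPL8 (bL17) at -0.34 and MRPS18 (uS11) at -0.15 were lowest. Both arrays lay above the 6 at 5 to 20% for 8 genes, MRP51, MRPL13, MRPL16, MRPL33, MRPL39, MRPL49, RSM18 and RSM27, a share of 12.3% against 7.88% of all probe sets, and none lay below.

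Without sucrose, the genes of the mitochondrial ribosome in HS had differences of both signs. The shares called, or without overlap with the baseline, were under those of all probe sets. With all arrays limma called none, against 8.35% of all probe sets, with 1 higher and 1 lower at an unadjusted p under 0.05. The median difference from 5 to 20% was -0.16, against -0.31 for all probe sets, and it turned to 0.13 after quantile normalization and 0.06 after centring each array on its median, so the group as a whole has no settled direction here. Without the 6 LS arrays MRP51 (1.14, adjusted p = 0.00456 by limma) and MRPL16 (1.10, adjusted p = 0.00709) rose, and MRPL3 (-1.36, adjusted p = 0.00379) and RSM26 (-1.14, adjusted p = 0.0167) fell, where 34.1% of all probe sets were called. MRP51 read 1.4 and 1.1 without sucrose and MRPL16 1.64 and 1.41, both above all 6 arrays at 5 to 20%. MRPL3 read 0.371 and 0.666, and RSM26 (mS42), which is related to iron and manganese superoxide dismutases as MRP1 (mS43) is, read 0.401 and 0.764 against a baseline of 0.926 to 1.4. MRP1 itself read 0.764 and 0.789 without sucrose, below its 6 baseline arrays.

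In that comparison MRPS12 had a difference of -0.78 and MRPL28 of 0.70, the next in size on either side. Above the baseline without overlap were MRP51, MRPL16, MRPL33 and RSM28, 6.15% of the genes against 19.1% of all probe sets. Below it were MRP1, MRP10, MRP2, MRPL25, MRPL3, MRPL31, MRPL7 and RSM26, 12.3% against 31.9%. In HS the ratios of MRP51 and MRPL16 without sucrose and at 40 and 50% all lay above those at 5 to 20%, which the plot of single genes shows.

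**Figure D4:**
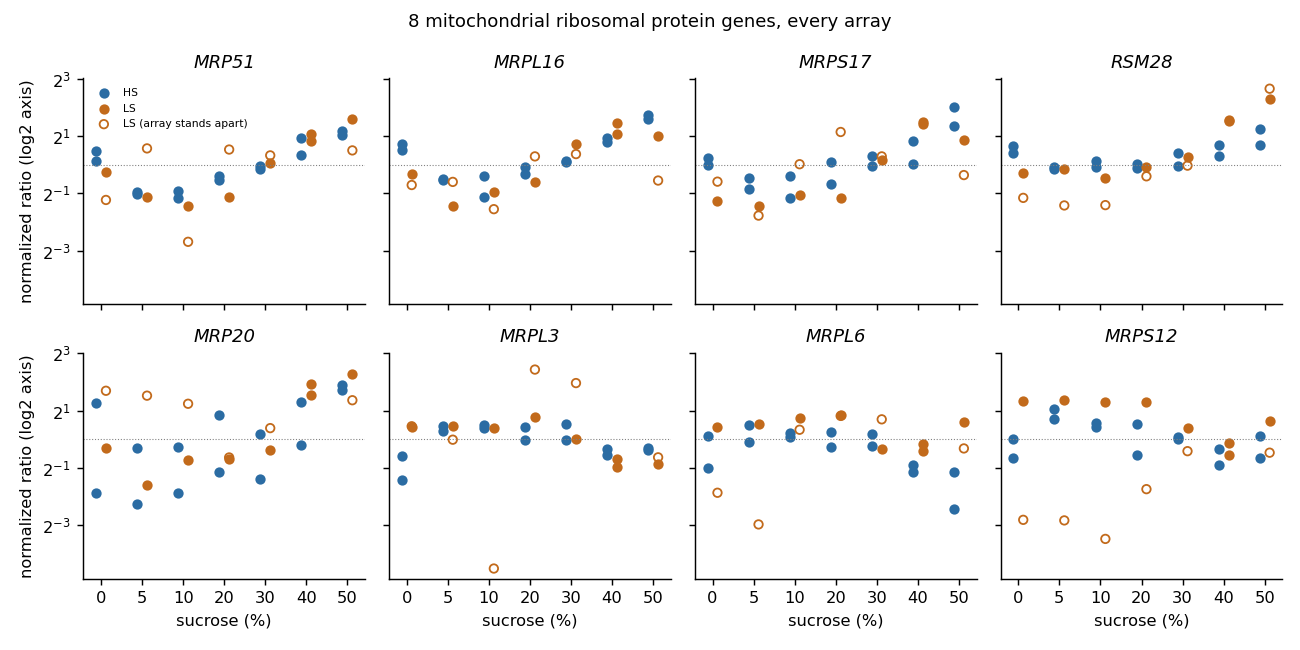
Normalized ratio (log2 axis) of 8 mitochondrial ribosomal protein genes on every array, by sucrose concentration, HS in blue and LS in orange, with open points for the 6 LS arrays that stand apart; the 8 were chosen after their values were seen. MRP51 lies between 0.448 and 0.769 at 5 to 20% in HS and stands at 2.07 and 2.23 at 50%, and MRP20 shows its 2 HS replicates apart at every concentration up to 40%.

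In LS at 40% sucrose, the one LS concentration with both arrays among the 22, 5 of the 65 genes rose and none fell, where 17.9% of all probe sets were called. They were RSM28, MRPS17, MRPL11, MRPL16 and MRP51. A positive difference was found for 52 genes (80%), against 44% of all probe sets, with a median of 0.66 against -0.25. In the fit without the 6 LS arrays 20 rose and 2, MRPS12 and MRPL3, fell, among them all 5, where 54.0% of all probe sets were called. None of the 65 was called in a fit of the LS arrays alone, or without either of the arrays at 40%, and 10 were without the second array at 20%. At an unadjusted p under 0.05 limma had 9 higher and none lower with all arrays.

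RSM28 (mS46), a small-subunit protein known from a mutation that restores COX2 translation, read 2.85 and 2.94 at 40% in LS, against 0.373, 0.743 and 0.95 as the lowest, median and highest at 5 to 20%. Its difference was 2.18 ± 0.48 (adjusted p = 0.00354 by limma), 4.54-fold. MRPL16 read 2.75 and 2.12 against 0.341, 0.584 and 1.22, a rise of 2.09 ± 0.49 (adjusted p = 0.0062 by limma). MRPS17 read 2.67 and 2.82 against 0.292, 0.465 and 2.2. It rose by 2.17 ± 0.58 (adjusted p = 0.0141 by limma), and the 2.2 came from the second array at 20%, 1 of the 6 that stand apart.

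MRPL11 (uL10), which anchors the stalk of the large subunit, read 1.43 and 1.24 at 40% in LS against 0.128, 0.366 and 0.533, a rise of 2.16 ± 0.68 (adjusted p = 0.034 by limma) that was 1.58 without the 6 arrays. MRP51 read 2.08 and 1.78 against 0.155, 0.46 and 1.48, a rise of 1.82 ± 0.57 (adjusted p = 0.0311 by limma). Each of these 5 genes lay above its whole baseline at 40%. That held for 14 of the 65 genes, against 14.7% of all probe sets, and RSM25 (mS23) alone lay below its baseline, at 0.524 and 0.598, against 14.8% of all probe sets.

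MRPS12 went from 2.61, 2.49 and 2.46 on the first LS replicates at 5, 10 and 20% to 0.917 and 0.679 at 40%, and fell by 1.68 on the log2 scale without the 6 arrays (adjusted p = 0.00373 by limma). With them the difference was 0.33, since the second replicates at 5, 10 and 20% read 0.141, 0.0902 and 0.3. MRPL3 fell by 1.37 on the log2 scale without the 6 arrays (adjusted p = 0.0039 by limma), from 1.37, 1.33 and 1.7 to 0.62 and 0.515.

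At 50% sucrose in LS 6 of the 65 genes rose and 1 fell, where 22.1% of all probe sets were called. After quantile normalization 2 rose and none fell, and with only the compared groups in the fit none was called. Leaving out the second array at 50% gave 4 calls. RSM28 rose most, by 3.11 ± 0.48 (adjusted p = 0.000199 by limma), with 4.85 and 6.26 at 50% against 0.373 to 0.95 at 5 to 20%. MRPL44 (mL53) read 2.84 on both arrays and rose by 2.70 ± 0.86 (adjusted p = 0.03 by limma). MRPS16 (bS16) rose by 2.46 ± 0.77 (adjusted p = 0.0266 by limma), with 4.88 and 7.02 at 50%. The second array at 20%, which stands apart, overlapped both, at 4.99 for MRPL44 and 9.48 for MRPS16. MRPL11 rose by 2.05, MRP51 by 1.92 and MRPL22 (uL22), which lines the peptide tunnel, by 1.74.

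RSM25 was the gene that fell, by 2.66 on the log2 scale (adjusted p = 0.0194 by limma). Its 2 arrays at 50% read 0.958 and 0.0539, the latter on an array that stands apart, and without the 6 the difference was -0.16 (adjusted p = 0.813 by limma). Without the 6 arrays 19 genes rose and MRPL3 fell (-1.39, adjusted p = 0.0147 by limma), where 49.7% of all probe sets were called, and the 6 that rose with all arrays were among the 19. The median difference was 0.43 with all arrays and 0.63 without the 6, against -0.26 and -0.17 over all probe sets. MRP20, at 4.79 on the first array at 50%, had the highest difference without the 6, 3.26 (adjusted p = 0.0413 by limma).

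At 30% sucrose in LS no gene was called by limma with all arrays, where 0.491% of all probe sets were. At an unadjusted p under 0.05, 11 were higher and none lower, a count with no share of all probe sets beside it. Positive differences were found for 58 of 65 genes (89.2%), with a median of 0.88 against -0.01 for all probe sets, and 0.45 against -0.27 without the 6 arrays. MRP10 (mS37) at 2.48, MRPL44 at 2.12 and MRP17 (bS6) at 1.99 were highest, and RSM24 (mS35) at -1.23, MRPL35 (mL38) at -0.76 and MRPL1 (uL1) at -0.44 lowest. MRP10 read 1.56 and 7.46 and MRPL44 0.67 and 5.47 at 30%, the second value of each on an array that stands apart. Without the 6, MRPL16 rose (1.71, adjusted p = 0.0226 by limma), with 6.38% of all probe sets called. With all arrays 6 genes, MRP7, MRPL11, MRPL16, MRPL17, MRPL19 and RSM28, lay above the baseline without overlap, against 3.71% of all probe sets.

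Without sucrose in LS none was called by limma, where 0.109% of all probe sets were, with 1 higher and 4 lower at an unadjusted p under 0.05, and the median difference was 0.00. Leaving out the first array without sucrose, so that the group rested on an array that stands apart, gave 7 calls. MRPL37 (mL54) at 1.74, MRPL39 (bL33) at 1.34 and MRP49 (mL61) at 1.23 were highest, and MRPL27 (mL41) at -2.16, RSM19 (uS19) at -1.72 and MRPS8 (uS8) at -1.63 lowest. These spread with the arrays that stand apart: without them the same 6 genes lay at 0.33, 1.33, 0.39, 0.21, 0.14 and 0.23.

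The genes that rose at high sucrose were partly the same in the 2 yeasts. The yeasts share no arrays, but each gene has 1 estimate of spread and 1 scaling over both. Calls in the 2 yeasts are therefore not independent, and their overlap is a description. With all arrays 6 rose in LS and 4 in HS at 50%, and MRP51 was in both, 16.7% of the LS and 25% of the HS genes, against 51.9% and 71.6% over all probe sets. With the 6 LS arrays left out 19 rose in LS and 20 in HS at 50%, and 12 were in both, 63.2% of the LS and 60% of the HS genes. The 12 were MRP17, MRP20, MRP51, MRPL11, MRPL16, MRPL19, MRPL22, MRPL27, MRPL28, MRPL33, MRPS17 and RSM28. Over all probe sets 823 rose in both, 65.3% of 1260 in LS and 69.9% of 1177 in HS, shares close to those of the 65 genes. Across the 65 genes the difference at 50% in HS and that at 40% in LS without the 6 arrays had a Pearson correlation of 0.774, against 0.846 over all 5498 probe sets. Between 50% in HS and 50% in LS it was 0.63, against 0.748. The 65 points come from the same arrays, each gene was scaled over the whole series, and the correlation is a description.

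**Figure D5:**
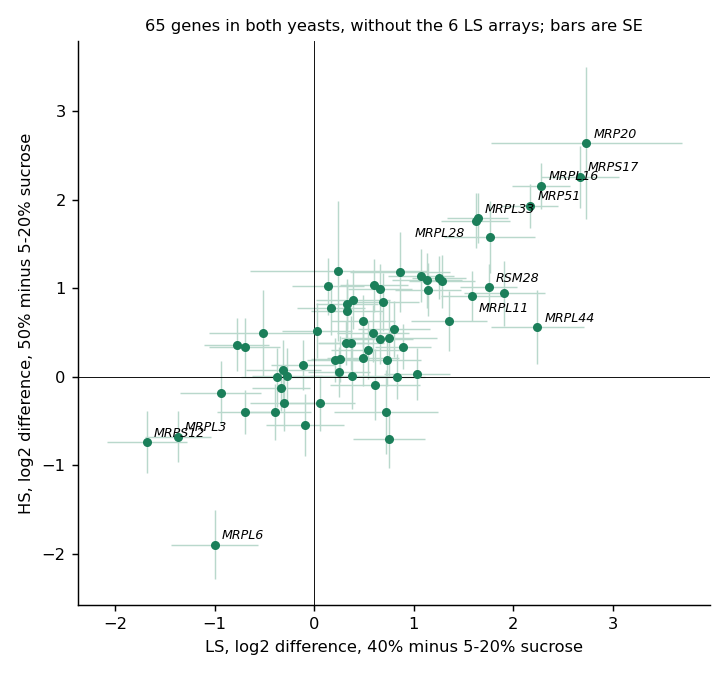
Log2 difference of each of the 65 genes at 40% sucrose in LS (horizontal) and at 50% in HS (vertical), both against 5 to 20% and without the 6 LS arrays; bars are SE. MRPS17, MRPL16 and MRP51 are high in both, MRPL6 is at -1 in LS and -1.90 in HS, and MRPL44 is at 2.24 in LS and 0.56 in HS.

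The difference between the yeasts in these responses was tested directly. With all arrays no gene was called by limma for the response to 0% (0.655% of all probe sets), 40% (0.418%) or 50% (0.491%). At an unadjusted p under 0.05 none differed for 0%, 1 was lower in HS for 40%, and 3 were higher and 1 lower for 50%. Without the first LS array at 50% alone, 6 were called for the 50% response. Once the 6 LS arrays were left out 4 genes had a smaller response in HS at 40%, MRPL44 (-2.08), MRPS17 (-1.67), MRPL25 (-1.31) and RSM28 (-1.21), with adjusted p from 0.029 to 0.0449 by limma, where 27.5% of all probe sets were called. At 50% they were MRPL44 (-2.55), MRPS28 (-1.99), MRP2 (-1.70) and MRPL31 (-1.69), where 12.7% of all probe sets were called. For these 4 the LS value at 50% is that of 1 array. MRPL44 read 2.84 there and 1.48 and 1.64 at 40%, from 0.39, 0.323 and 0.282 on the same replicate at 5, 10 and 20%. In HS it read 0.701 and 2.34 at 50% against 0.507 to 1.26.

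Averaged over the 7 concentrations, 4 genes were higher in HS than in LS and 2 lower, where 15.4% of all probe sets were called. The split was 10 higher and 3 lower after quantile normalization, and 7 and 2 after centring. This count moved when 1 array was left out: it was 3 for 14 of the arrays, 10 of them HS arrays, 12 without the first LS array at 10 or 50%, and 14 without the first LS array at 0%. MRPL17 (mL46) differed by 1.54 ± 0.51 (adjusted p = 0.0479 by limma), MRPL11 by 1.22 ± 0.32 (adjusted p = 0.0148), MRPL35 by 1.08 ± 0.29 (adjusted p = 0.0177) and MRP21 (bS21) by 1.02 ± 0.32 (adjusted p = 0.0373). MRPL8 (-0.97 ± 0.22, adjusted p = 0.00701 by limma) and MRPL28 (-0.86 ± 0.27, adjusted p = 0.0387) were lower in HS. All 6 were called without the 6 LS arrays too, with smaller differences: 0.47 for MRPL17, 0.67 for MRPL11, 0.75 for MRPL35, 0.65 for MRP21, -0.92 for MRPL8 and -0.82 for MRPL28. In that fit 8 genes were higher and 7 lower in HS, where 28.9% of all probe sets were called.

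MRPL35 separated the yeasts on the arrays that did not stand apart. Its lowest, median and highest ratios were 1, 1.15 and 1.53 on the 14 HS arrays and 0.588, 0.727 and 0.959 on those 8 LS arrays, with no overlap. On all 14 LS arrays it ran from 0.126 to 1.92. MRPL8 ran from 0.514 to 1.09 in HS with a median of 0.809, and from 0.904 to 2.58 in LS with a median of 1.44, a slight overlap. MRPL17 was 0.884, 1.35 and 1.92 in HS. In LS it was 0.0301, 0.857 and 1.37, and its 4 lowest values, 0.0301 to 0.115, came from arrays that stand apart. RSM7 (uS7), which differed by -1.04 with all arrays (adjusted p = 0.0816 by limma), was called without the 6 at -1.50 (adjusted p = 0.00201).

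Each gene was also set against the median profile of the other 64 over the 14 group means, all 28 arrays included. RSM18 (bS18) was most like it, with a Pearson correlation of 0.89, followed by MRP21 at 0.855 and MRPL22 at 0.845. MRPL1 at -0.43, RSM25 at -0.295 and MRPL8 at -0.111 were least like it. Without the 6 LS arrays MRPL33 (0.924) and MRPL13 (0.914) came first, RSM18 was at 0.88, and MRPS12 (-0.612), MRPL6 (-0.591) and MRPL3 (-0.579) came last. The median over the 65 was 0.469 with all arrays, and 0.634 over the 7 HS groups alone, where 57 of 65 were above 0 and MRPL6 was lowest at -0.726. RSM18 in HS read 0.71 and 0.905 without sucrose and 1.76 and 2.19 at 50%, with 0.557 to 1.2 at 5 to 20%.

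Among the members with known places in the ribosome that were not called in either yeast at 50%, MRP4 (uS2) differed by 0.74 in HS and 0.16 in LS, and MRPS5 (uS5) by -0.09 and 1.41. RSM7 differed by 0.49 and 1.13. In the large subunit MRPL36 (bL31), which forms a bridge between the subunits, differed by 0.77 and -1.25, MRP7 (bL27), near the peptidyl transferase centre, by 0.20 and 1.02, and MRPL10 (uL15) by 0.21 and -1.68. The SE of these differences was 0.49 to 0.88. The LS values moved without the 6 arrays, to 0.21 for MRP4, 0.76 for MRPS5, 0.27 for RSM7, -0.35 for MRPL36, 0.59 for MRP7 and 0.83 for MRPL10, the last with its direction turned. MRPL10 read 1.75 and 0.0374 in LS at 50%, the second on an array that stands apart.

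The other genes of mitochondrial gene expression were taken from lists of textbook members. Their counts are with all arrays unless stated, and the shares of all probe sets called in each comparison are those given above. Of 11 other mitochondrial ribosomal proteins none was called in HS or LS at 0, 40 or 50%, with medians of 0.29 in HS and 0.10 in LS at 50%. In the smaller fit 2 of them rose in LS at 40%, 3 in LS at 50% and 2 in HS at 50%. PET123, a small-subunit protein, was among them in each (3.27, 3.13 and 2.42), and lay at 2.35, 1.21 and 2.42 with all arrays. Of 11 translation factors 1 fell and none rose in each of HS at 50%, LS at 40% and LS at 50%: MRF1, the release factor, by 2.06, 1.62 and 1.51 on the log2 scale. The last was -0.92 without the 6 LS arrays and was not called. It read 0.313 and 0.272 at 50% in HS. With the 6 left out, 3 translation factors rose and 2 fell in HS at 50%, 3 and 1 in LS at 40%, and 5 and 1 in LS at 50%, MEF2, an elongation factor, rising in all 3 comparisons. Of 16 genes of aminoacyl-tRNA synthesis GTF1, a subunit of the complex that makes glutaminyl-tRNA, rose in the same 3 comparisons, by 1.48, 2.15 and 2.64. MSD1, the aspartyl-tRNA synthetase, rose (1.96) and HER2, another subunit of that complex, fell (-1.93) in LS at 50%, and MSE1, the glutamyl-tRNA synthetase, fell (-2.55) in LS at 40%, with no other call in that list at 0, 40 or 50%. HER2 was not called in LS at 50% and MSE1 was at -1.42 in LS at 40% without the 6 arrays. In that fit 3 genes of aminoacyl-tRNA synthesis rose and 3 fell both in HS at 50% and in LS at 40%, and 5 rose in LS at 50%.

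Among 20 translational activators ATP22, needed to translate ATP6, rose in HS at 50% (1.95) and in LS at 40% (1.70), and PET309, needed for COX1, fell in LS at 50% (-3.79). No other activator was called at 0, 40 or 50% with all arrays. In the smaller fit 7 activators rose in HS at 50%, 4 rose and 1 fell in LS at 40%, and 4 rose and 2 fell in LS at 50%, and CBP6, needed for cytochrome b, rose in all 3 comparisons. Of 8 genes of mitochondrial transcription and DNA, ABF2, which packs mitochondrial DNA, rose in HS at 50% (2.31), LS at 40% (3.65) and LS at 50% (3.52). It read 2.33 and 6.32 in HS at 50%, against 0.583, 0.772 and 1.03 at 5 to 20%. RPM2, the protein of mitochondrial RNase P, rose in HS without sucrose (3.68) and at 50% (3.44). In LS without sucrose RPM2 was at 2.44 and not called, and at 4.23 without the 6 arrays. In LS it read 3.61 and 4.32 at 40%, and 6.55 and 1.98 at 50%, the 1.98 on an array that stands apart. At 5, 10 and 20% in LS it read 0.293, 0.136 and 0.0828 on the first replicates and 2.38, 5.64 and 0.551 on the second. HMI1, a helicase, fell in LS at 40% (-1.96, and -1.10 without the 6 arrays) and MIP1, the mitochondrial DNA polymerase, in LS at 50% (-2.02, and -0.30 without the 6 arrays, not called). Of 20 import and folding genes 1, TOM5, a small subunit of the outer-membrane translocase, fell in LS at 40% (-3.20) and 50% (-3.53), and none was called in HS at 0, 40 or 50%. Leaving out the 6 gave 8 falling in HS without sucrose, 1 rising and 5 falling in HS at 50%, 7 falling in LS at 40%, and 4 rising and 3 falling in LS at 50%.

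Medians of the respiratory chain and ATP synthase genes were set beside those of the mitochondrial ribosomal protein genes. They were higher without sucrose and at 50% in both yeasts, and at 40% in LS. Of 35, 17 (48.6%, against 17.9% of all probe sets) rose in LS at 40% with a median of 2.59. In LS at 50% 14 rose (40% against 22.1%) with a median of 2.17. In HS 5 rose at 50% (14.3% against 15.1%), with a median of 1.10, and 6 without sucrose (17.1% against 8.35%), with a median of 1.08. None fell in these 4 comparisons. The medians of the mitochondrial ribosomal protein genes there were 0.66, 0.43, 0.44 and -0.16, the last of which turned positive under both other scalings. It was the other way at 30 and 40% in HS, where the respiratory genes had medians of -0.12 and 0.13 against 0.24 and 0.20, and at 30% in LS, with 0.33 against 0.88. Without sucrose in LS they were at 0.67 against 0.00. In the smaller fit 24 respiratory genes rose and 1 fell in LS at 40%, 32 rose in LS at 50%, 18 rose and 2 fell in HS at 50%, and 16 rose and 1 fell in HS without sucrose. The medians of the 127 cytosolic ribosomal protein genes lay the other way, at -1.79, -1.13, -0.47 and -0.96 in the same 4 comparisons. Of these genes 15, 7, 3 and 1 fell (11.8%, 5.51%, 2.36% and 0.787%). Over all probe sets 17.9%, 22.1%, 15.1% and 8.35% were called in either direction, so each share falling was under that background. These gene groups were not tested against each other.

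Of the regulators, HAP2 rose in HS at 50% (2.56 ± 0.62, adjusted p = 0.00802 by limma), in LS at 40% (2.96 ± 0.62, adjusted p = 0.00255) and in LS at 50% (3.08 ± 0.62, adjusted p = 0.00164). It read 4.74 and 5.79 in HS at 50%. HAP4, the subunit that limits the activity of the complex, read 18 and 10.2 in LS at 40%, against 0.318, 0.727 and 1.21 at 5 to 20%, and rose by 4.40 ± 0.81 (adjusted p = 0.001 by limma). In LS at 50% it read 44.5 and 1.68, the latter on an array that stands apart. In HS it read 0.435 and 0.587 at 40% and 0.908 and 3.47 at 50%, with a difference of 0.87 (adjusted p = 0.538 by limma) at 50%. The HAP4 response to 40% differed between HS and LS by -5.35 ± 1.14 (adjusted p = 0.0406 by limma). HAP3 fell in LS at 40% (-1.84, adjusted p = 0.027 by limma), and HAP5 and PUF3 were not called in any of the 12 comparisons with all arrays, with PUF3 at 1.41 ± 0.99 in HS at 50%. In the smaller fit HAP4 rose by 6.15 in LS at 50% and HAP5 by 1.82 in LS at 40% and 2.13 at 50%.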

How the data were processed

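Each deposited value is a linear ratio that the authors call normalized, per the labels. Per the series design text the authors normalized each chip on positive genes, S. pombe excluded, and then each gene, in GeneSpring 7.0. No source used here states the summary over probes. Ratios ran from 0.01 to 532.3. Of 10928 probe sets 7244 had 1 symbol, 1 several and 3683 none. Symbols came from the platform annotation, 12 updated through RefSeq gene IDs.

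The log2 ratio of the 5498 S. cerevisiae probe sets entered a limma 3.58.1 (R 4.3.3) cell-means model of the 14 groups, with empirical Bayes moderation (14 residual and 5.41 prior degrees of freedom). The number of arrays limits the precision. The fit was tested on simulated data. The members and lists were chosen with earlier results of these data known.

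Genes named were, per comparison, up to 5 called members with the largest rise or fall, the 3 highest and 3 lowest where fewer than 3 were called, the 3 most and 3 least like the median profile, a fixed set of core proteins, up to 3 called genes per list and 5 regulators; others were chosen after their values were seen. Alternatives were 2 scalings, an offset, a filter, moderation, array weights, a replicate block, the samples fitted, the baseline and arrays left out. No sequences were used here.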

Additional observations from a re-analysis of the deposited data

Results flagged for a closer look

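The response of HAP4 to 40% sucrose, against the mean of 5, 10 and 20%, differed between the yeasts by -5.35 on the log2 scale (HS minus LS, adjusted p = 0.0406 by limma), by a test of the difference itself, and by -5.38 without the 6 LS arrays. None of the 65 mitochondrial ribosomal protein genes differed in this way with all 28 arrays.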

How the results depend on the processing

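Counts below are members called of 65. The share of all probe sets called under each alternative is not given beside them. They show how the calls of these genes move, and not how these genes stand against the rest. Without the 6 LS arrays, HS had 4 at 0%, 5 at 40% and 21 at 50%, LS had 1 at 30%, 22 at 40% and 20 at 50%, HS against LS had 15, and the yeasts' responses to 40% and to 50% differed for 4 each. Quantile normalization gave 2 in HS at 0%, 2 in HS at 40%, 8 in HS at 50%, 2 in LS at 50% and 13 in HS against LS, and median centring 8 in LS at 40%. Array weights (0.236 to 3.96) gave 4, 2 and 10 in HS at 0, 40 and 50% and 9 and 1 in LS at 40 and 50%. With only the compared groups in the fit there were 4, 6 and 18 in HS at 0, 40 and 50% and none in LS at 40 or 50%. With each yeast fitted alone, an alternative chosen after seeing the data, there were 4, 4 and 22 in HS, 0 in LS at 40% and 1 at 50%. With 5% alone as the baseline 1 was called in HS and 4 in LS at 50%. The cause of these changes was not tested.

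Leaving out 1 array at a time gave 0 to 3 in HS at 50% (0 without HS 50% replicate 2), 0 to 10 in LS at 40% (0 without either replicate at 40%, 10 without LS 20% replicate 2), 4 to 10 in LS at 50%, 3 to 14 in HS against LS, 0 to 7 in LS at 0% (7 without LS 0% replicate 1), 0 to 1 in LS at 30% and 0 to 6 for the difference of the 50% responses (6 without LS 50% replicate 1). No member called with all 28 arrays changed direction under an alternative run, and MRPS12 in LS at 40%, called at -1.68 without the 6, lay at 0.33 with them.

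Same-numbered arrays were not paired by the labels: of 91 pairs of groups 42 had deviations correlated over 0.1, 15 of 21 within LS and 18 of 21 within HS. With a replicate block, 1 term shared by both yeasts, 10 were called in HS against LS, 6 in LS at 40%, 7 in LS at 50% and 4 in HS at 50%. There MRP20 and MRPL4 had adjusted p = 0.0617 and 0.237 by limma. The MRP20 replicates split in opposite directions, with 0.813 and 0.211 in HS at 5% and 0.328 and 2.87 in LS. A shared term cannot take up such a split within HS, and no block was fitted for each yeast. Centring moved the median of all probe sets by over 0.1, from -0.31 to -0.09 in HS at 0% and from -0.25 to -0.03 in LS at 40%. There the members' median went from -0.16 to 0.06 and from 0.66 to 0.89.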
